A study of Homo sapiens with 6 samples.

Results

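PCBP1-AS1 is a long non-coding RNA (lncRNA) gene that lies antisense to PCBP1. Of the 58965 transcript probes of the array, 3 are described here, each paired with 1 of its transcripts. The probes are ASHGA5P015053, for transcript ENST00000416068, ASHGA5P050503, for ENST00000421255, and ASHGA5P015087, for ENST00000437456. They were chosen as every probe that the study's list of 245 upregulated lncRNA probes pairs with the symbol PCBP1-AS1. That list was itself made from the difference between LNCaP-AI and LNCaP on these arrays, by a fold change over 2 and a p under 0.01 in the methods' t-test. The difference between the lines is therefore given below as a description with no test. Expression was measured on 6 one-color arrays. Of these, 3 held RNA of LNCaP, a human line of prostate cancer cells that depends on androgen, kept in RPMI-1640 medium with 10% fetal bovine serum, streptomycin and penicillin. The other 3 held RNA of LNCaP-AI, which was derived from LNCaP by long culture in RPMI-1640 with 10% charcoal-stripped serum, from which androgens have been removed. LNCaP-AI is 1 derived line, so differences cannot be told apart from those of that derivation and of time in culture. A P number stands in the LNCaP-AI titles, and the study's legends use P for passage. The series' design text speaks of independent samples but does not say whether these were separate cultures, so each spread below is one between arrays.

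A natural antisense lncRNA is transcribed from the strand opposite another gene and can share its promoter region or overlap its transcript. PCBP1, also called hnRNP-E1, is an intronless gene for a poly(rC)-binding protein, which binds cytosine-rich stretches of RNA and takes part in splicing, mRNA stability and translation. In the RefSeq annotation of GRCh38.p14, PCBP1-AS1 lies on chromosome 2 and has 83 transcripts, more than any other of the 18330 lncRNA genes listed there, of which 12849 have 1. Its span overlaps PCBP1, ASPRV1, which encodes a skin protease, and the pseudogene RN7SL470P. The array files use another build, hg19, and hold no probe sequences, so it was not settled where within these transcripts the 3 probes lie or whether they read shared exons. No probe could be paired by name with PCBP1 or with the prostate markers KLK3, KLK2, TMPRSS2 and FOLH1, so the sense gene and the identity of the cells could not be checked on these arrays.

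RefSeq gives sequences around 5 starts of PCBP1-AS1. Against the PCBP1 start, 4 of the 5 lie upstream, at 102, 462, 463 and 531 bases, and point away from PCBP1. The fifth lies 731 bases downstream of it, on the opposite strand, and points towards it. The start at 102 bases is also a listed start of ASPRV1. The sequences below are shown because they are the region from which PCBP1 and the antisense transcripts diverge. Each is the 250 bases before a start, 5′ to 3′ on its own strand, and the capitals mark the 39 bases that both windows share on opposite strands.
PCBP1, chr2:70087227-70087476, plus strand: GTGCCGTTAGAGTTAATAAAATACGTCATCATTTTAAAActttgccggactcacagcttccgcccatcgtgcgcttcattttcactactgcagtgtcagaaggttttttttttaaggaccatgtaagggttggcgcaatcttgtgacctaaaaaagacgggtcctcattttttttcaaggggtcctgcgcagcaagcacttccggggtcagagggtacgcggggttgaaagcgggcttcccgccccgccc
PCBP1-AS1, chr2:70087016-70087265, minus strand: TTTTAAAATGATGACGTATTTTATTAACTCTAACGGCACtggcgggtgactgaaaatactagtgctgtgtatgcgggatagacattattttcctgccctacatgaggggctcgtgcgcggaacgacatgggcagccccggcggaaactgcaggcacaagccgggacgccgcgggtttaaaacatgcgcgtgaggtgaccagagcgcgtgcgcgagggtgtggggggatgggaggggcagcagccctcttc
The second is the window before the start at 462 bases. Over windows of 300 bases, from 250 before a start to 50 after, the one at the start shared with ASPRV1 held 38 CG dinucleotides, more than 90.1% of the 35116 RefSeq windows, and 201 of its bases also lie in the PCBP1 window. It held the most of the 5. The remaining PCBP1-AS1 windows held 20 to 33, more than 58.8% to 82.8% of all windows, with 29 (75.8%) at the start at 462 bases. A GC box (GGGCGG, either strand) was found in all 5 PCBP1-AS1 windows, of which 3 overlap each other and are not separate, with 7 copies at the start shared with ASPRV1, and in 45.0% of all windows. The PCBP1-AS1 sequence printed above holds 0 copies, since the 1 copy in its window of 300 bases is not within those 250. A TATA box (TATAAA, either strand) was in 0 of the 5 windows and in 11.5% of all. The CCAAT box, searched by these letters on both strands, was in 0 of the 5 and in 34.6% of all. These are matches of letters only. Which start each of the 3 measured transcripts uses is not given in the sources used here.

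**Figure D1:**
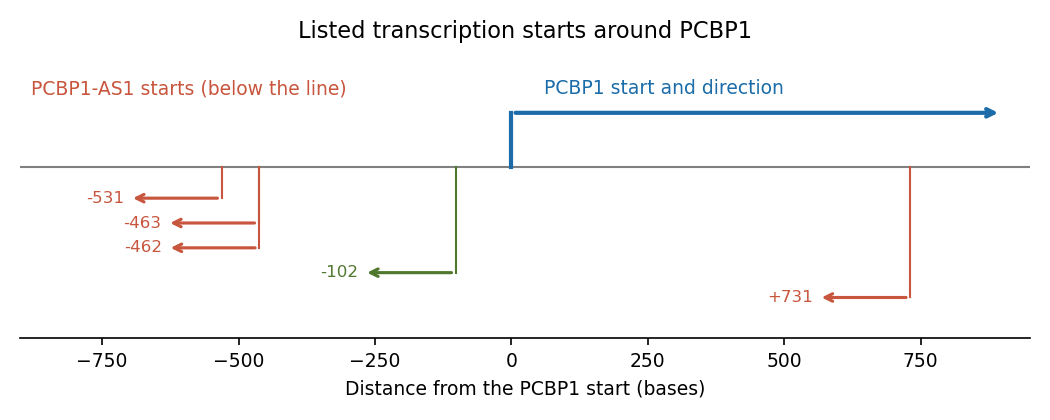
Starts of PCBP1-AS1 in RefSeq (arrows below the line, with their distance in bases) against the PCBP1 start (arrow above). The x axis is the distance from the PCBP1 start, and arrows point in the direction of transcription. The 4 upstream starts run away from PCBP1, the start at 731 bases points towards it, and the green arrow is the start that ASPRV1 shares.

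The scanner software set 64.5% to 67.3% of probes well above background per array and 0 as saturated. Median intensities ran from 66.1 to 85.8 in LNCaP and from 64.4 to 77.6 in LNCaP-AI. Slide 1 held LNCaP replicates a and b, while slide 2 held replicate c beside the 3 LNCaP-AI arrays. Letters name the LNCaP replicates here.

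All 3 listed PCBP1-AS1 probes gave a dim signal that was higher in LNCaP-AI after the scanner software's background subtraction. Before that step the lines overlapped for ASHGA5P050503. Intensities here are the background-subtracted values that the scanner software gives, before any normalization between arrays. For ASHGA5P015053 the LNCaP intensities were 49.8 (replicate a), 51.3 (b) and 40.7 (c), and those of LNCaP-AI were 86.3 (replicate 1), 98.3 (2) and 99.3 (3). ASHGA5P015087 read 42.4, 47.9 and 33.0 in LNCaP and 79.8, 110 and 96.1 in LNCaP-AI, in the same order. For both probes all 3 LNCaP-AI arrays were above all 3 LNCaP arrays, and every one of the 6 spots was well above background. ASHGA5P050503 was the dimmest of the 3, with 25.2, 21.98 and 19.1 in LNCaP and 39.4, 50.4 and 51.6 in LNCaP-AI. Its LNCaP-AI arrays were also all above its LNCaP arrays, but it was not well above background on any LNCaP array and was on all 3 LNCaP-AI arrays. LNCaP replicate c was the lowest of the LNCaP arrays, and LNCaP-AI replicate 1 the lowest of the LNCaP-AI arrays, for all 3 probes.

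**Figure D2:**
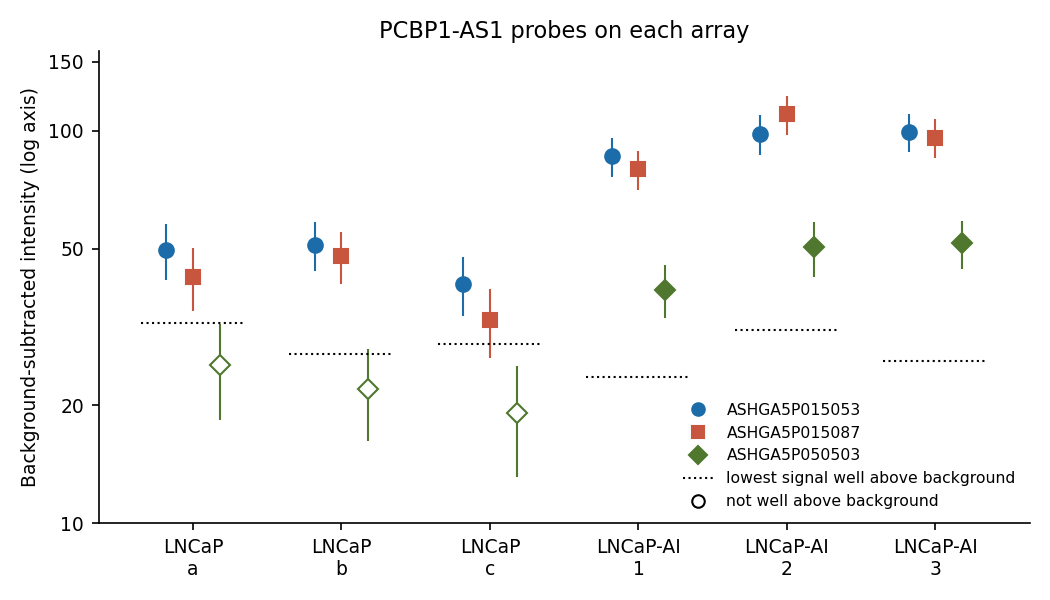
Background-subtracted intensity of the 3 PCBP1-AS1 probes (log axis) on each array, with bars for the scanner software's error of each spot. Open symbols are spots not well above background and dotted lines the lowest signal that was: ASHGA5P050503 lies under that line on every LNCaP array, at 19.1 to 25.2, and above it on every LNCaP-AI array, at 39.4 to 51.6.

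The scanner software's own error of a spot, a measure of that spot alone, was 14.5% to 17.3% of the intensity of ASHGA5P015053 in LNCaP and 11.3% to 11.8% in LNCaP-AI. For ASHGA5P050503 it was 26.5% to 31.6% in LNCaP and 14.2% to 15.8% in LNCaP-AI. In LNCaP, ASHGA5P015053 outshone 8.62% to 16.3% of all detected probes of its array, meaning those well above background, and ASHGA5P015087 than 3.38% to 14.5%. In LNCaP-AI these shares were 28.6% to 34.2% and 31.2% to 33.3%. ASHGA5P050503, below the range of those probes in LNCaP, was brighter than 11.5% to 17.01% of them in LNCaP-AI. Each array also carries 60 negative sequences, spotted 10 times each. Of these 60, between 49 and 51 were dimmer than ASHGA5P050503 on the LNCaP arrays and 53 or 54 on the LNCaP-AI arrays. For the remaining 2 probes, 53 to 56 of the 60 were dimmer on every array. A few negative sequences were themselves bright, 9 of 60 on at least 3 arrays, and 2 of the 60 were at least 2-fold higher in LNCaP-AI with no overlap between the lines, while the median log2 difference over the 60 was 0.01 at a common 75th percentile.

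After quantile normalization of the log2 intensities across arrays, the LNCaP mean of ASHGA5P015053 was 5.52 ± 0.25 (SD, n = 3) and its LNCaP-AI mean 6.60 ± 0.10 (SD, n = 3), on the log2 scale. The difference was 1.08 (standard error 0.16, limma), or 2.12-fold. For ASHGA5P015087 the LNCaP mean was 5.31 ± 0.35 (SD, n = 3) and the LNCaP-AI mean 6.60 ± 0.10 (SD, n = 3), a difference of 1.29 (standard error 0.19), or 2.45-fold. Its spread between arrays was wider in LNCaP than in LNCaP-AI, as was that of ASHGA5P015053. For ASHGA5P050503 the measured LNCaP mean was 4.43 ± 0.17 (SD, n = 3) and the LNCaP-AI mean 5.58 ± 0.16 (SD, n = 3), a fitted difference of 1.16 (standard error 0.14). Because this probe was not well above background in LNCaP, only a bound holds for it. With each LNCaP array set to the lowest normalized signal among probes well above background where that is higher than the probe's own, its LNCaP-AI signal was at least 1.68-fold higher. This bound holds for the software's background subtraction alone, and other treatments of background, given further on, gave lower values.

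The lowest LNCaP-AI array exceeded the highest LNCaP array by 0.69 log2 units for ASHGA5P015053, by 0.78 for ASHGA5P015087 and by 0.84 for ASHGA5P050503. All 3 probes passed the filter of at least 3 arrays well above background, ASHGA5P050503 through its 3 LNCaP-AI arrays alone. By limma with Benjamini-Hochberg adjustment over 39107 tested probes, 3 of 3 were called higher (2-fold or more, adjusted p below 0.05), where 2.82% of all tested probes were called higher. By that limma rule, 2.83% of the 7074 tested probes with a mean log2 signal within the range of the 3 were called. The methods' t-test called 3 of 3 at its own limits, against 2.27% of all tested probes, and 3 of 3 at 2-fold or more and an adjusted p below 0.05, against 1.95%. Every LNCaP-AI array lay above every LNCaP array in 3 of 3 probes, in 16.5% of all tested probes and in 11.7% of those in the same signal range. The list that named the probes used this same contrast, so nothing is read from these counts. Nearest to the 2-fold limit of the list was ASHGA5P015053, and values just outside it cannot be given, since other PCBP1-AS1 probes are not named. Among the 154 listed probes measured on all 6 arrays, where the median fold was 2.64, ASHGA5P015087 ranked 98 and ASHGA5P015053 ranked 136 by log2 difference.

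The probes measured in both lines, ASHGA5P015053 and ASHGA5P015087, were compared with each other by their log2 difference within an array. The signals of different probes are not comparable as levels. The line difference of ASHGA5P015053 minus that of ASHGA5P015087 was -0.21, with an SD between arrays of 0.13 (n = 6), and the arrays of the lines overlapped. Which of the folds is larger was thus not separated by these arrays, and the 2-fold limit of the list kept out any smaller change. ASHGA5P050503, with only a bound, could not be placed in this order. Its log2 difference was lower than those of the other probes under normexp background correction, and its ratio over the negative controls was lower too, as given below.

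The study's list holds 6 genes with 3 or more probes. Over probes well above background on all 6 arrays, the log2 differences of PCBP1-AS1 spanned 0.21, from 1.08 to 1.29, over 2 probes. By the same count they spanned 0.05 over 2 probes of RP11-65F13.2, 0.07 over 3 of LINC00152, 0.08 over 2 of RP11-838N2.4 and 0.20 over 2 of RP11-705O24.1, against 2.56 over 3 of AC007319.1. By the same list, 5 more probes carry an antisense name. MAGI2-AS3 and HOXA-AS3, both well above background on every array, each differed by 1.1, close to the values of PCBP1-AS1. LEF1-AS1, antisense at the gene of a Wnt pathway transcription factor, was detected on 1 of the 3 LNCaP arrays and had a fitted difference of 1.99. GRM7-AS3 and DLX6-AS2 were not well above background on any LNCaP array, and their bounds in LNCaP-AI were at least 1.12-fold higher for GRM7-AS3 and at least 1.32-fold higher for DLX6-AS2. All 5 were chosen by the contrast that chose PCBP1-AS1.

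The p limit of the list depends on how widely the arrays of 1 line differ, so the deviations below are not independent of that choice. That limit does not depend on which array of a line is the higher. Among the LNCaP arrays the 3 probes had the same highest and lowest array after normalization. The highest was replicate b, which was also the highest LNCaP array for 40.5% of 7069 other probes in the same signal range. In LNCaP replicate b all 3 probes lay above their line's mean, by 0.16 to 0.40 log2 units, and in LNCaP replicate c all 3 lay below it, by 0.17 to 0.27. In LNCaP-AI the deviations were smaller, from -0.16 to 0.17, and replicate 3 was the only LNCaP-AI array where all 3 probes lay on the same side of the mean. ASHGA5P050503 was not well above background on the LNCaP arrays, so its deviations there are those of an undetected spot. Over the 6 arrays, Pearson's r of these deviations was 0.883 between ASHGA5P015053 and ASHGA5P015087, 0.800 between ASHGA5P050503 and ASHGA5P015087, and 0.735 between ASHGA5P015053 and ASHGA5P050503. Over all pairs of the 245 listed probes the median r was 0.163, and the middle 90% of pairs ran from -0.752 to 0.882. These correlations rest on 6 arrays with 4 free deviations and are a description only. Other dim probes moved slightly in the same direction in LNCaP replicates b and c, but not in LNCaP replicate a or LNCaP-AI replicate 2. Over the 7069 other probes of the same signal range measured on every array, the median deviation was 0.04 in LNCaP replicate b and -0.03 in replicate c, and the median r with the mean of the 3 PCBP1-AS1 probes was 0.0988. The part of this shift in the shared movement was not tested.

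**Figure D3:**
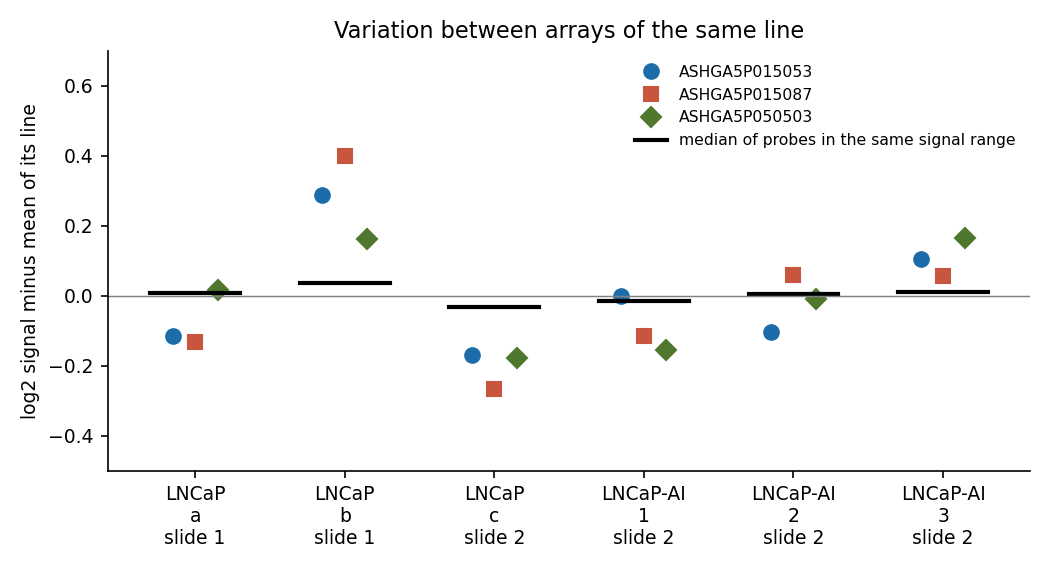
Normalized log2 signal of each PCBP1-AS1 probe minus the mean of its line, on each array, with slides under the names. Black bars are the median of the 7069 other probes in the same signal range, which stay between -0.03 and 0.04. All 3 probes rise by 0.16 to 0.40 in LNCaP replicate b, the highest LNCaP array for 40.5% of those other probes.

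Over all 6 arrays, the other listed probes most like the mean of the 3 PCBP1-AS1 probes were those of RP1-249H1.4 (Pearson's r = 0.998), RP11-304F15.6 (0.995) and RP1-54A3.1 (0.994). By within-line deviations alone they were those of RP1-249H1.4 (0.964), CTD-2247C11.3 (0.953) and RP11-304F15.6 (0.937). These are the highest among the 242 other listed probes, whose median r by this measure was -0.063. RP1-249H1.4, RP1-54A3.1 and CTD-2247C11.3 were well above background on 3 of the 6 arrays, and RP11-304F15.6 on 5. Each r thus rests in part on undetected spots. All of these probes were listed for rising between the lines, and the median r over the 242 other listed probes was 0.943 over the 6 arrays. In all, 20 of the 39104 other tested probes reached the r of RP1-54A3.1.

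How background was removed bears on these dim spots. Before any subtraction, the median pixel signal of ASHGA5P015053 was 104.5 to 127 in LNCaP and 144 to 157 in LNCaP-AI, and that of ASHGA5P015087 was 103 to 129 and 140 to 169.5. The lines did not overlap for either probe. For ASHGA5P050503 they did, at 82 to 109 in LNCaP and 92.5 to 104 in LNCaP-AI, and they still overlapped after subtraction of the local background, at 56 to 77 and 69 to 82. The software's subtraction, taken as the median pixel signal minus the deposited intensity, removed 61.7 to 86.6 units from these spots in LNCaP and 52.4 to 60.2 in LNCaP-AI. The 308 negative control spots of the array, which carry no matching target, had a median pixel signal of 55 to 71.5 on the LNCaP arrays and 49 to 52.5 on the LNCaP-AI arrays. Set against this negative control signal on the same array, ASHGA5P050503 stood 27 to 37.5 units above it in LNCaP and 43.5 to 55 in LNCaP-AI, with no overlap. ASHGA5P015053 stood 49.5 to 57 and 95 to 107 units above it, a ratio of means of 1.89, and ASHGA5P015087 stood 48 to 57.5 and 91 to 120.5 above it, a ratio of 1.92. For ASHGA5P050503 that ratio was 1.53. On every array the 600 spots of negative sequences had a higher median pixel signal, at 64 to 79 in LNCaP and 57.5 to 60.5 in LNCaP-AI. Ratios over those spots were not taken. The share of all probes without overlap was not counted on these scales, and the 3 probes were listed for this contrast. Nothing is read from the lack of overlap.

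**Figure D4:**
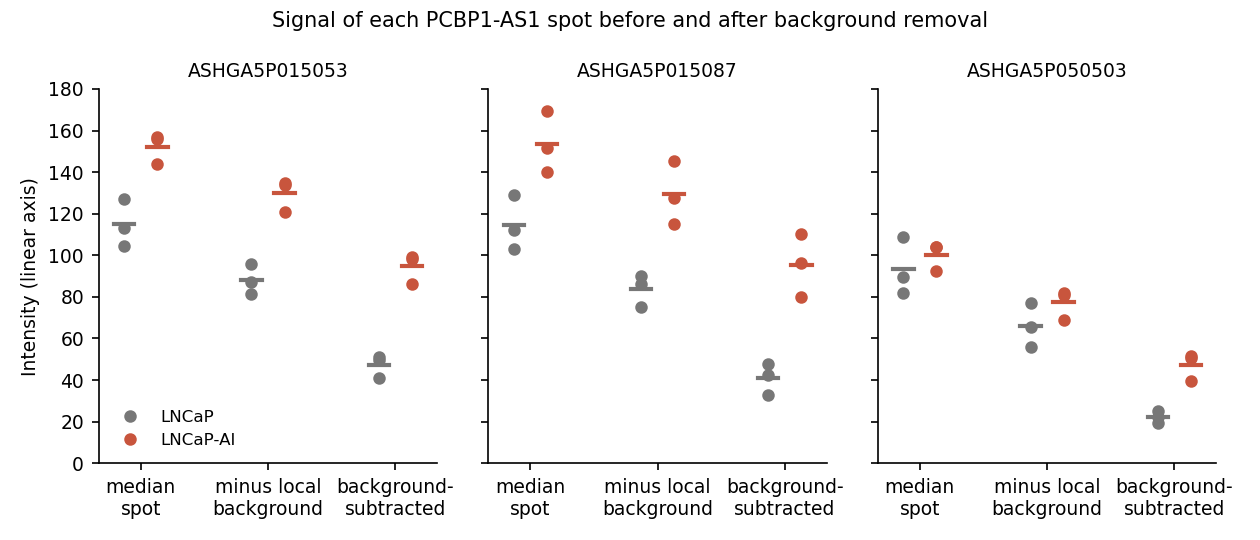
Median pixel signal of each PCBP1-AS1 spot, the same minus its local background, and the deposited background-subtracted intensity, on a linear axis, with 1 point per array and bars at the mean of 3 arrays. The lines stay apart at every step for ASHGA5P015053 and ASHGA5P015087, and for ASHGA5P050503 only at the last.

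With normexp background correction, which models signal and local background together, in place of the software's subtraction, 0 of the 3 probes reached 2-fold. With an offset of 50 the log2 differences were 0.54 for ASHGA5P015053, 0.58 for ASHGA5P015087 and 0.27 for ASHGA5P050503, and with no offset they were 0.85, 0.94 and 0.53. An added offset shrinks folds of dim probes by construction, and all 3 probes lay below 2-fold with no offset too. The cause of the lower values was not tested. Within slide 2, where the only LNCaP array is replicate c, LNCaP-AI was higher by 1.25, 1.56 and 1.33 log2 units for ASHGA5P015053, ASHGA5P015087 and ASHGA5P050503. Against replicates a and b of slide 1 it was higher by 0.995, 1.16 and 1.07. Without LNCaP replicate c, ASHGA5P015053 fell just under 2-fold at 0.9992 and 2 of 3 probes stayed called, against 2.52% of all tested probes.

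**Figure D5:**
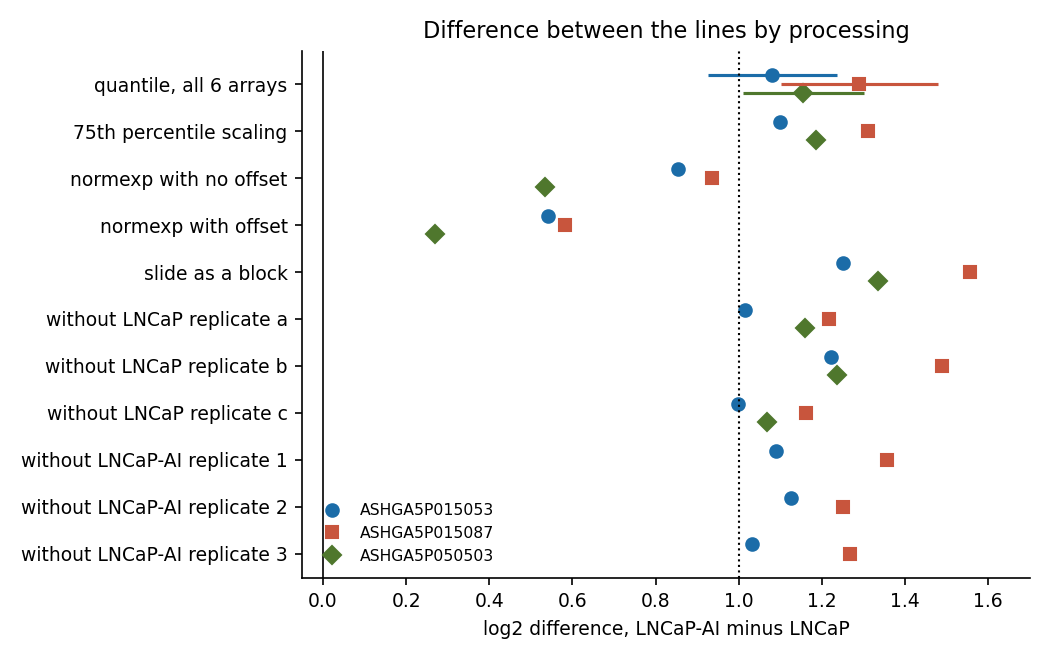
Log2 difference between LNCaP-AI and LNCaP of each PCBP1-AS1 probe by processing, with standard errors on the first line and a dotted line at 2-fold. Under both normexp settings all 3 probes lie below 2-fold, at 0.27 to 0.94, and ASHGA5P050503 has no point where a LNCaP-AI array is left out, since it is then well above background on too few arrays.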

How the data were processed

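Each sample was hybridized to 1 Arraystar Human LncRNA Microarray V3.0 after rRNA removal and random-primed Cy3 labeling. The authors deposited the output of Agilent Feature Extraction 11.0.1.1, in which each intensity is background-subtracted and not normalized between arrays. Control spots, 600 spots of negative sequences and outlier spots were left out. After a floor of 1, log2 intensities were normalized by quantiles between arrays, the method the study names. The fit took the 39107 probes detected (well above background) on 3 or more arrays, and was made with limma 3.58.1 in R 4.3.3, with Benjamini-Hochberg adjustment over all of them. The fit was tested on simulated arrays. Precision is limited by the number of arrays. Probe names came from the study's supplementary list of 245 probes, whose statistics were not used.

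The members, lists and settings were chosen with earlier results of these data known. Named are the 3 probes, the 3 listed probes most alike by each measure, the listed antisense genes and the genes with 3 or more listed probes. Promoter sequences are RefSeq's, GRCh38.p14. Alternatives were other scaling, normexp on the median spot signal, dim-probe filters, a block for slide, the methods' t-test and each array left out. Comparisons with negative controls, and spans over probes detected on all arrays, were added after the values were seen.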

Additional observations from a re-analysis of the deposited data

How the results depend on the processing

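No paired analysis was possible because replicates of LNCaP and LNCaP-AI have no number in common. Of 82 alternative values, 65 moved by less than their limit, 15 moved by more and 2 changed sign. The limit was the probe's pooled SD within lines for a line difference and the SD between arrays for a pair difference. A count of 2 of the 3 probes called was within its limit, so the loss of 1 probe was not counted as a move. Pair differences of ASHGA5P050503 were counted also in fits where it failed the filter. With normexp and an offset of 50 the log2 differences of ASHGA5P015053, ASHGA5P050503 and ASHGA5P015087 were 0.54, 0.27 and 0.58. Of the 3 probes, 0 were called by limma at 2-fold (1.20% of all tested probes) and 0 by the methods' t-test limits. With no offset the log2 differences were 0.85, 0.53 and 0.94, again with 0 called by limma (2.03% of all) and 0 by the t-test limits. ASHGA5P015053 minus ASHGA5P050503 changed sign, from -0.08 to 0.27 with the offset and 0.32 without it. ASHGA5P015053 minus ASHGA5P015087 moved from -0.21 to -0.042 and -0.082, and ASHGA5P050503 minus ASHGA5P015087 from -0.13 to -0.31 and -0.40. The cause of these shifts was not tested. With slide as a block the differences of ASHGA5P050503 and ASHGA5P015087 were 1.33 and 1.56. Since slide 1 holds LNCaP arrays only, this fit compares LNCaP-AI with LNCaP replicate c alone. It repeats the values given above for slide 2. With 75th percentile scaling r between the deviations of ASHGA5P015053 and ASHGA5P050503 was 0.861, and 2 of the 3 most alike probes over 6 arrays stayed in the top 3. Leaving out 1 array at a time, differences ran from 0.9992 to 1.22 for ASHGA5P015053, 1.07 to 1.24 for ASHGA5P050503 and 1.16 to 1.49 for ASHGA5P015087. In these fits 2 or 3 of the 3 probes were called, against 2.05% to 2.89% of all tested probes. ASHGA5P050503 failed the filter whenever a LNCaP-AI array was left out, and under the filter of all 6 arrays. The methods' t-test called 3 of 3 at its own limits (2.27% of all) and 3 of 3 after adjustment (1.95% of all). ASHGA5P050503 was not well above background in LNCaP, so its values and pair differences here are fitted ones. The median over the other antisense-named probes and the span of PCBP1-AS1 stayed within their limits under 75th percentile scaling. The sense gene PCBP1 could not be read.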
